A study of Mus musculus with 2 samples.

Results

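The triad genes of skeletal muscle are described here in the gastrocnemius, a calf muscle, of male mice of the F1 hybrid strain B6CASTF1/J aged 10 days. Members were the 10 genes Ryr1, Cacna1s, Cacnb1, Cacng1, Cacna2d1, Jph1, Jph2, Stac3, Trdn and Asph, chosen by name and not by a measured value, of 15631 annotated mouse genes with reads. All 10 had reads in both libraries, with 3619 reads over 493 transcript models in replicate 1 and 2661 reads over 407 models in replicate 2. The study held 1 group of 2 long-read RNA-seq libraries, made from 2 µg of total RNA each, with no treatment, genotype or age to compare. The labels name a separate male for each library, so every difference below is between 2 libraries and stands for no condition. The labels also point to differing versions of a pipeline document, 3.1 beside replicate 1 and 3.0 beside replicate 2, and animal, library and version cannot be told apart.

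Excitation-contraction coupling takes place at the triad, where a transverse tubule of the muscle cell surface lies between terminal cisternae of the sarcoplasmic reticulum. In skeletal muscle the L-type calcium channel of the tubule acts as a voltage sensor and is thought to open the ryanodine receptor of the reticulum by direct mechanical contact, so that calcium is released without first entering from outside. Cacna1s encodes the pore of that channel, Cacnb1, Cacng1 and Cacna2d1 its accessory subunits, Stac3 an adaptor needed for its delivery and coupling, and Ryr1 the release channel. Jph1 and Jph2 encode junctophilins, which hold the tubule and reticulum membranes together, while Trdn (triadin) and the junctin product of Asph bind the release channel and the calcium store protein calsequestrin on the reticulum side.

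The genes lie apart in the mm10 genome. Of the voltage sensor genes, Cacna1s is at chr1:136052750-136119822 (plus strand), Cacna2d1 at chr5:15934691-16374511 (plus), Cacnb1 at chr11:98001508-98023034 (minus), Cacng1 at chr11:107703218-107716522 (minus) and Stac3 at chr10:127501686-127508823 (plus). On the side of the reticulum, Ryr1 is at chr7:29003344-29125179 (minus), Trdn at chr10:33080554-33476709 (plus) and Asph at chr4:9448069-9669344 (minus). The junctophilin genes are at chr1:16964560-17097889 (Jph1, minus) and chr2:163336242-163397993 (Jph2, minus).

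Replicate 1 held 1145490 mouse reads and replicate 2 held 941841. Levels are reads per 1000000 mouse reads (CPM). A gene with no read was taken to have up to 3 reads, which is 2.62 CPM in replicate 1 and 3.19 CPM in replicate 2. Ranges in brackets beside percentages are 95% Wilson intervals, and they and this floor cover counting error only. Markers of the fibre itself were high, with 6 of 6 present and sums of 172444 and 179277 CPM in replicates 1 and 2. Of 4 heart markers only Myh6 had reads, 6 in replicate 1 and 0 in replicate 2, and both neuron markers were at 0. All 3 fibroblast markers had reads, summing to 18575 and 10908 CPM in replicates 1 and 2, as had all 3 Schwann cell markers (1678 and 1277 CPM in replicates 1 and 2), all 3 smooth muscle markers (409 and 429 CPM), and both red cell (317 and 674 CPM), endothelial (88.2 and 61.6 CPM) and macrophage markers (35.8 and 41.4 CPM). In bulk tissue, fewer cells of a type and less RNA per cell cannot be told apart. Reads of long transcripts were fewer in replicate 2: the 1209 tested genes whose models averaged 4000 nt or more took 12.0% of the mouse total in replicate 1 and 7.92% in replicate 2, and genes below 1000 nt took 9.66% and 12.2%.

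Together the 10 genes had 3159 and 2825 CPM in replicates 1 and 2, a mean of 2992 ± 236 CPM (SD, n = 2). Trdn had the highest level, with 755 and 1087 CPM in replicates 1 and 2. The channel pore gene Cacna1s followed with 636 and 241 CPM in replicates 1 and 2, the beta subunit gene Cacnb1 with 436 and 411 CPM, and Asph with 373 and 385 CPM. The release channel gene Ryr1 had 356 and 298 CPM, and the gamma subunit gene Cacng1 had 320 and 230 CPM. Lower levels were found for Jph1 at 107 and 80.7 CPM, the alpha2delta subunit gene Cacna2d1 at 76.8 and 49.9 CPM, Jph2 at 79.4 and 28.7 CPM and Stac3 at 21.8 and 12.7 CPM, replicate 1 before replicate 2 in each pair. By mean CPM, values of the 2 libraries overlapped between the neighbours Cacna1s and Cacnb1, Ryr1 and Cacng1, and Cacna2d1 and Jph2. Within a library, Ryr1 was above Cacng1 both times, while each other pair changed its order between the libraries. Beyond its neighbour, Cacna1s also overlapped Asph, Ryr1 and Cacng1.

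**Figure D1:**
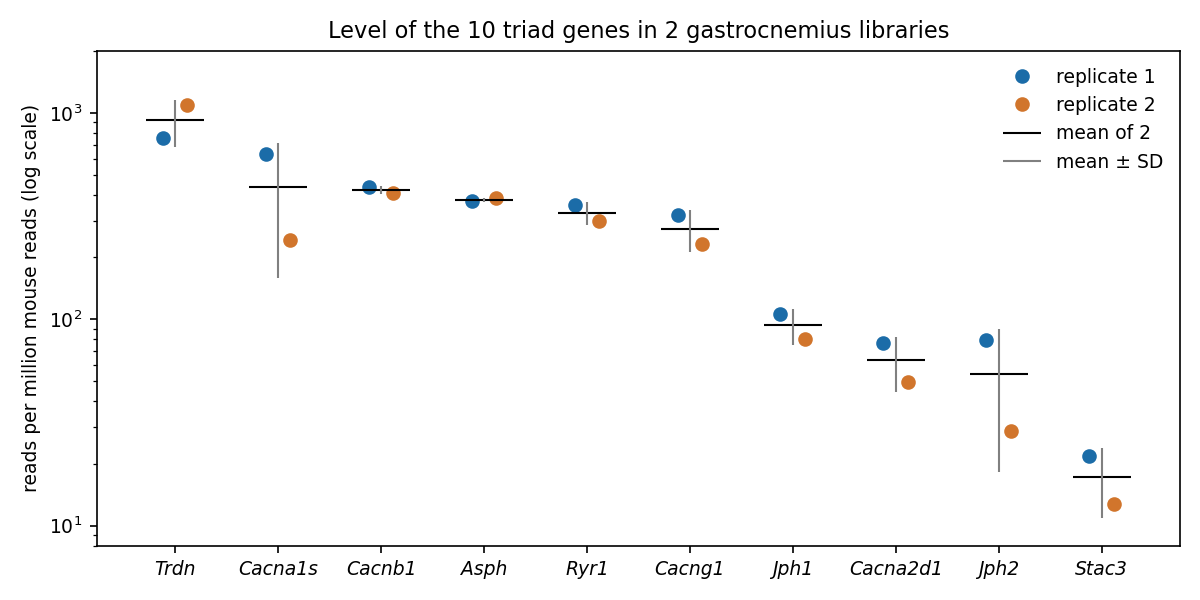
Level of each triad gene in CPM on a log axis, one point per library with the mean of 2 and a line for mean ± SD, in order of mean level. Trdn lies highest in both libraries and Stac3 lowest, and the 2 points of Cacna1s and of Jph2 lie farthest apart.

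A long read is counted once whatever its length, so CPM was not divided by length, and levels per kilobase of the read-weighted model length are given as the other scale. On the per-kilobase scale Trdn was again first at 327 and 471 CPM per kb in replicates 1 and 2. Cacnb1 (235 and 222 CPM per kb), Cacng1 (258 and 186 CPM per kb) and Asph (201 and 208 CPM per kb) came next, and the values of Cacng1 overlapped those of both others. Ryr1 (118 and 98.7 CPM per kb) and Cacna1s (123 and 46.5 CPM per kb) overlapped, and the remaining 4 genes had means between 12.2 and 25.6 CPM per kb. By the mean, Cacna1s was second in CPM and sixth per kilobase; in CPM it was second in replicate 1, while Trdn, Cacnb1, Asph and Ryr1 were all above it in replicate 2.

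Cacna1s and Jph2 were the 2 members that passed both limits of a call between the libraries. Cacna1s had 728 reads in replicate 1 and 227 in replicate 2, a 2.63-fold higher level in replicate 1 (log2 ratio 1.40, adjusted p = 7.76e-40 by the exact binomial test with Benjamini-Hochberg adjustment over 7516 genes). Jph2 had 91 reads in replicate 1 and 27 in replicate 2, a 2.74-fold higher level in replicate 1 (log2 ratio 1.45, adjusted p = 2.77e-05, same exact test). A call required both a 2-fold ratio and an adjusted p below 0.05, which 2.71% of all tested genes met, 1.89% being higher in replicate 1 and 0.825% higher in replicate 2. Both called members were higher in replicate 1. Trdn was lower in replicate 1 (log2 ratio -0.53, exact binomial adjusted p = 3.62e-13) and Cacng1 higher (0.47, adjusted p = 0.0029), both short of 2-fold; 9.11% of genes had an adjusted p below 0.05 at any fold. With annotated transcripts only, the Trdn ratio turned to 0.062 (exact binomial adjusted p = 0.97). The other 6 members had log2 ratios between -0.05 (Asph) and 0.75 (Stac3) and did not pass the adjusted p. The median log2 ratio of the 10 members was 0.43, against 0.01 over all tested genes.

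Ratios of replicate 1 over replicate 2 moved with transcript length across the whole table. The median log2 ratio was -0.32 in 648 genes with models below 1000 nt, -0.01 in 2116 genes of 2000 to 3000 nt and 0.35 in 1209 genes of 4000 nt or more. Cacna1s models averaged 5183 nt and those of Jph2 averaged 2801 nt. The Jph2 mean includes short models, such as a genomic one of 915 nt, while whole Jph2-201 has 4211 nt. The expected share of reads was also taken from genes of the same length range, an alternative chosen after seeing the data. Cacna1s then had a log2 ratio of 0.80 (exact binomial adjusted p = 4.45e-12) and was no longer past the 2-fold limit. Jph2, set against genes of 2000 to 3000 nt, had 1.53 (same exact test, adjusted p = 8.89e-06) and remained past it. Jph2 was not set against genes of 4000 nt or more, so its call is not shown to hold at the length of Jph2-201. Fibre markers moved both ways: the myosin genes Myh4 (23388 and 8871 CPM in replicates 1 and 2, log2 ratio 1.40) and Myh1 (0.95) were higher in replicate 1, and Acta1, skeletal actin (-0.23), was lower. The part of length, fibre genes and other cell types in the member differences was not tested further.

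**Figure D2:**
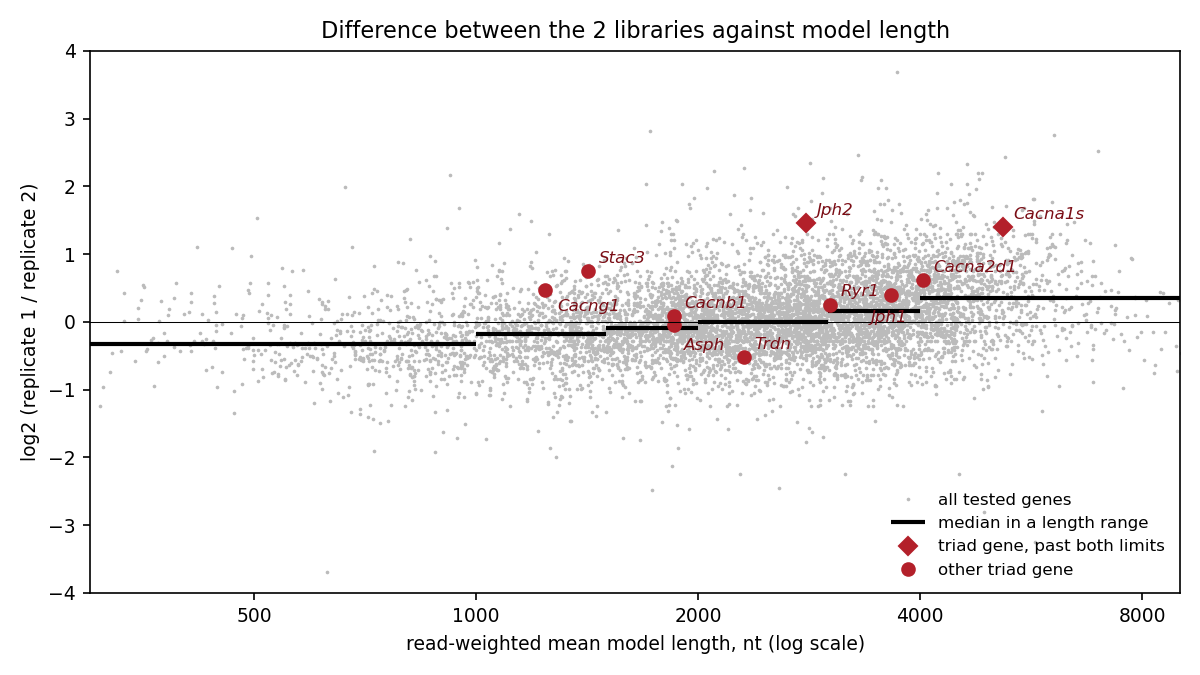
Log2 ratio of replicate 1 over replicate 2 for every gene with 20 or more reads (grey) against the read-weighted mean length of its models on a log axis, with the median in each of 6 length ranges as black bars and the 10 triad genes in red. The medians run from -0.32 below 1000 nt to 0.35 at 4000 nt or more; Cacna1s and Jph2 are the diamonds.

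Cacna1s reads covered most of the message. The transcript Cacna1s-204, with 44 exons, 6104 nt and 5550 coding nt, took 461 of 728 reads in replicate 1 (63.3%) and 114 of 227 in replicate 2 (50.2%). That share was 13.1 points higher in replicate 1 and was called (Fisher's exact test, adjusted p = 0.029 over 9787 models, of which 1.49% were called). It was 1.61 points among annotated transcripts only and 3.65 points without incomplete and genomic models, and was called in neither (exact adjusted p = 1 in both). The first intron of the annotated transcripts, at chr1:136053053-136054578 on the plus strand of mm10, was held by 522 of 728 reads in replicate 1 (71.7%, interval 68.3 to 74.9%) and 136 of 227 in replicate 2 (59.9%, 53.4 to 66.1%), which did not pass (exact adjusted p = 0.094). The genomic class, single-exon models that follow no annotated exon structure, took 30 Cacna1s reads in replicate 1 and 0 in replicate 2. Without it, the first-intron difference was 14.9 points and passed (exact adjusted p = 0.005). The 12 unspliced Cacna1s reads of replicate 2 were classed as incomplete and stayed in. Unspliced reads were thus left out of replicate 1 only, and the 14.9 points do not compare like reads.

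The single variable exon of Cacna1s is exon 29 of Cacna1s-204, 57 coding nt at chr1:136104570-136104626. It is known as the exon whose skipping gives the embryonic channel form, and it encodes part of an outer loop next to a voltage sensor. Its sequence is shown in capitals between 15 bases of each neighbouring exon, since its inclusion is a recognised sign of muscle maturation:
Cacna1s 57-nt exon: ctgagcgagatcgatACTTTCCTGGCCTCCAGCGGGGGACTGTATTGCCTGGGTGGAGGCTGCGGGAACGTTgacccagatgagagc
Of the reads that span it, 610 of 652 held the exon in replicate 1 (93.6%, 91.4 to 95.2%) and 175 of 187 did in replicate 2 (93.6%, 89.2 to 96.3%). Both libraries thus lacked the exon in a minority of reads. The annotated transcript without it, Cacna1s-202, had 24 reads (3.30%) and 8 reads (3.52%). Of 45 annotated inner exons of Cacna1s with enough reads, 41 were in more than 95% of spanning reads and 3 in fewer than 5%.

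Ryr1 reads were 3' fragments. None of 408 reads in replicate 1 and none of 281 in replicate 2 matched an annotated transcript whole, which allows a share of up to 0.933% and 1.35% (upper interval bounds). Ryr1-208 has 109 exons and 15300 nt, and the longest Ryr1 model had 85 exons and 12840 nt in replicate 1 and 62 exons and 8295 nt in replicate 2. The last intron of Ryr1 was used by 393 of 408 reads in replicate 1 and 275 of 281 in replicate 2, so nearly all reads ended in the annotated last exon. Towards the 5' end coverage fell within a short stretch: the intron 1059 nt from the 3' end was spanned by 93.1% of reads in replicate 1 and 96.1% in replicate 2, and the intron at 2586 nt by 44.4% and 22.8%. At 5017 nt from the end the shares were 14.5% in replicate 1 and 4.63% in replicate 2, and at 10339 nt they were 2.21% (9 reads) and 0%.

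Many of those incomplete reads fell into a few models, grouped by the exon they began in. The models named here begin at annotated exon edges, so where in the exon a read began is not shown. Models that began in the exon at chr7:29019475-29020266 (minus strand) held 97 reads in replicate 1 and 91 in replicate 2, and those that began in the exon at chr7:29018763-29018833 held 74 in each. As named models, the first of these, with 16 exons and 2586 nt, took 23.3% of reads in replicate 1 and 31.7% in replicate 2, and a model of 15 exons and 1794 nt took 17.2% and 25.6%. Neither difference passed (exact adjusted p = 0.36 and 0.22). A model of 12 exons and 1485 nt took 3.68% in replicate 1 and 10.3% in replicate 2 (exact adjusted p = 0.039), under the 10-point limit. First introns of any annotated Ryr1 transcript, shorter ones that start inside the gene included, were held by 30.4% of reads in replicate 1 and 13.2% in replicate 2 (exact adjusted p = 2.24e-05); with this measure 0.592% of 4564 genes were called.

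**Figure D3:**
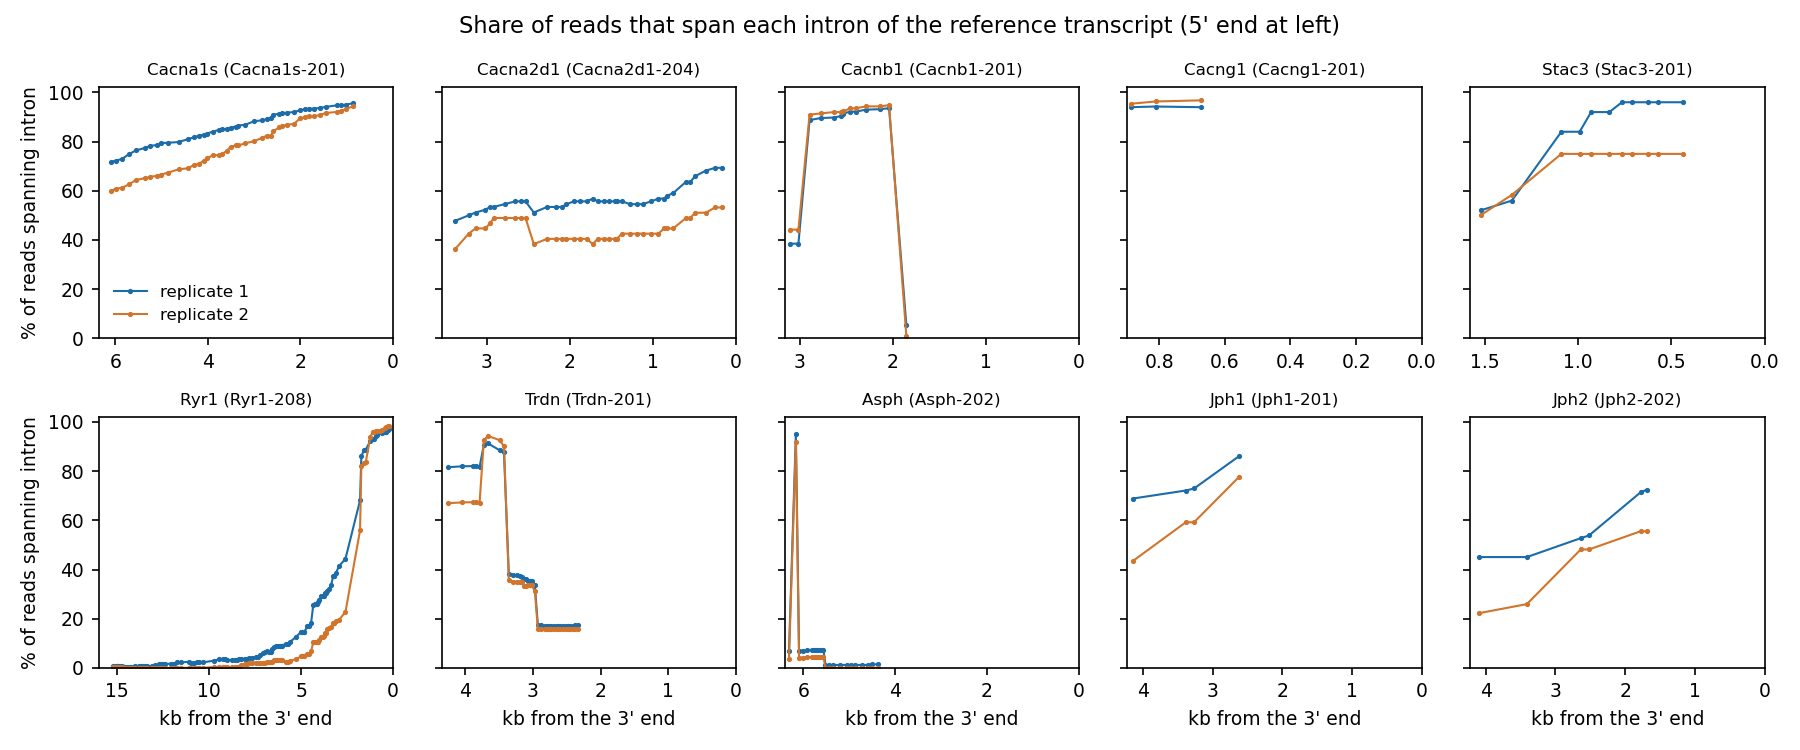
Percentage of a gene's reads that span each intron of its reference transcript, the annotated transcript with the most exons, against the distance of the intron from the 3' end in kb, with the 5' end at left and one line per library. Cacna1s stays above 59% to the 5' end in both libraries, Ryr1 drops between 1 and 3 kb, and Trdn and Asph drop at inner steps where reads end early.

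Ryr1 holds short coding exons that are spliced by age and tissue. Their skipping gives the juvenile channel forms, and both are included more often in adult muscle. They are shown because reads reached them in both libraries and held neither as an exon of its own, with the exon in capitals:
Ryr1 15-nt exon: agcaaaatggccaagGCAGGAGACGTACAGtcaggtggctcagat
Ryr1 18-nt exon: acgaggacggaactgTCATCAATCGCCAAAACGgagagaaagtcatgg
The 15-nt exon, exon 70 of Ryr1-202 at chr7:29056234-29056248, was found in 0 of 59 reads that span it in replicate 1 and 0 of 13 in replicate 2, which allows up to 6.11% and 22.8%. The 18-nt exon, exon 83 at chr7:29044919-29044936, was found in 0 of 124 and 0 of 40, which allows up to 3.00% and 8.76%. Its bases were held by 3 of 120 reads in replicate 1 and 1 of 36 in replicate 2 within an unannotated 759-nt exon, which runs from the preceding annotated exon through the intron to its end. Those exons were chosen after their values were seen. Other short exons were found in models of the same libraries. Of 11 annotated Trdn exons of 18 to 30 nt, 9 were in more than 95% of spanning reads, with 97.5% the lowest mean among them. None of those Trdn exons is as short as 15 nt, so recovery of an exon of that length is not shown. Of 33 annotated inner Ryr1 exons with enough reads, 30 were in more than 95% of reads, 3 in fewer than 5%, and none was variable. A longer form of the 93-nt exon at chr7:29056924-29057016, with 17 further nt at its 3' side and unannotated, was in 8 of 59 reads in replicate 1 and 3 of 13 in replicate 2.

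Among the accessory subunits, Cacnb1 was read nearly whole and split between starts. Cacnb1-204 (12 exons, 1431 coding nt) took 44.1% of reads in replicate 1 and 44.2% in replicate 2, and Cacnb1-202 (13 exons, 1572 coding nt) took 35.7% and 42.1% (exact adjusted p = 0.57). Of reads with an annotated first intron, 244 of 436 in replicate 1 (56.0%, 51.3 to 60.6%) and 178 of 349 in replicate 2 (51.0%, 45.8 to 56.2%) held that of Cacnb1-204, at chr11:98016843-98018272 on the minus strand. The intron at chr11:98019767-98022341, shared by Cacnb1-202 and 3 other transcripts, was held by 190 (43.6%) and 169 (48.4%). First-intron use was measured after the data were seen, and 0.155% of 3873 introns were called. No member intron was, and none of 9 reached an unadjusted p under 0.05 by Fisher's exact test.

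Both starts have a promoter in RefSeq's table (GRCm38.p6), and 250 bases of each are shown, on the minus strand and 5' to 3'. The first stretch lies ahead of Cacnb1-204 (chr11:98018373-98018622). The second lies at the outer start (chr11:98022628-98022877), and its last bases overlap the first exon of Cacnb1-202, which begins at chr11:98022634. Capitals mark an E-box, CANNTG:
Cacnb1 inner promoter: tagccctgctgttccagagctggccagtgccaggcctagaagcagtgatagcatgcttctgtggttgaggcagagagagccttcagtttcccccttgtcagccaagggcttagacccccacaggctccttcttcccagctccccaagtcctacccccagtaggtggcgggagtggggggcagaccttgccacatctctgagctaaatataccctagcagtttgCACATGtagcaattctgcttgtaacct
Cacnb1 outer promoter: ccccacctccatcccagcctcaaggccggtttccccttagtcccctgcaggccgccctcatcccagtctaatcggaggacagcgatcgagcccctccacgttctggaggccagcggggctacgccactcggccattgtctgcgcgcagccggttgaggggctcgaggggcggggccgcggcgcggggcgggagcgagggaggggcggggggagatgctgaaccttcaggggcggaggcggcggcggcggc
The inner stretch held 1 E-box and had 56.0% G and C, and the outer held 0 and had 73.2%. An E-box on either strand was in 66.2% of the 32851 promoters of the table. A MEF2 motif, CTANNNNTAG on either strand, was in neither stretch and in 3.2% of all promoters. A match is a description of the letters and not a bound site. The table held promoters for 5 of the 10 members.

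Both starts led to the muscle form of the inner alternative exon. That 155-nt exon at chr11:98011343-98011497, known from the muscle beta subunit, was held by 437 of 450 reads that span it in replicate 1 (97.1%) and 350 of 356 in replicate 2 (98.3%). Its alternative, a 20-nt exon known from other tissues at chr11:98010627-98010646, was in 4 of 456 (0.877%) and 3 of 357 (0.840%). The short exon is shown in capitals to tell the forms apart:
Cacnb1 20-nt exon: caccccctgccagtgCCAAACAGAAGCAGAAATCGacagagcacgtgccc
Reads that began with Cacnb1-204 held the 155-nt exon in 97.1% of cases in replicate 1 and 98.9% in replicate 2, and reads from the outer start in 98.4% and 98.8%. At the 3' end, 95.5% and 99.2% of spliced reads used the last intron of Cacnb1-204 and Cacnb1-202. The longer end of Cacnb1-201 was used by 20 spliced reads in replicate 1 and 2 in replicate 2. A single-exon genomic model at chr11:98001508-98003916, which covers that longer last exon, took 28 reads (5.61%) and 19 reads (4.91%). It holds no intron and is not among the spliced reads. The 155-nt and 20-nt exons and the longer end were chosen after their values were seen.

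Cacng1 and Cacna2d1 showed no variable exon. Cacng1-201, the only annotated form of the gamma subunit read, with 4 exons and 1249 nt, took 339 of 366 reads in replicate 1 (92.6%) and 206 of 217 in replicate 2 (94.9%). In Cacna2d1 the transcript Cacna2d1-201, with 39 exons, took 31 of 88 reads in replicate 1 (35.2%) and 10 of 47 in replicate 2 (21.3%; exact adjusted p = 0.79). A single-exon model of 3947 nt beginning in its last exon took 19.3% and 27.7%. All 23 annotated inner exons of Cacna2d1 with enough reads were in more than 95% of them. A 57-nt exon at chr5:16322539-16322595 (plus strand), coding in Cacna2d1-201, was held by 47 of 50 reads in replicate 1 and 18 of 18 in replicate 2, and is shown in capitals because annotated transcripts differ in whether they hold it:
Cacna2d1 57-nt exon: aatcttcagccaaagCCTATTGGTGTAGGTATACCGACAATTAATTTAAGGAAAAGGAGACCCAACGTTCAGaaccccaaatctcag
These Cacna2d1 exons were chosen after their values were seen. The annotated 21-nt and 9-nt exons further on were in 0 of 49 reads in replicate 1 and 0 of 19 in replicate 2, which allows up to 7.27% and 16.8%. Stac3, with 25 reads in replicate 1 and 12 in replicate 2, was under the minimum of 20 reads in each library for share tests. Its most used first intron, that of Stac3-203, was in 11 of 24 spliced reads in replicate 1 and 4 of 9 in replicate 2.

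Triadin reads mostly stopped short of the annotated end. The last intron of 411 of 815 spliced Trdn reads in replicate 1 (50.4%, 47.0 to 53.9%) and 535 of 986 in replicate 2 (54.3%, 51.1 to 57.3%) was chr10:33200223-33233854 (plus strand), which leads into exon 10 of the 38 exons of Trdn-201. In no annotated Trdn transcript is it the last intron, and the models end at chr10:33233926, where exon 10 ends. Whether the message itself ends there was not tested, and no genome sequence after exon 10 was read. The coding sequence of Trdn-201 had 44.2% A, against 19.6 to 33.7% in the other 9 members. A link of A content with these read ends was not tested. The last intron of Trdn-201 was used by 150 reads in replicate 1 (18.4%) and 160 in replicate 2 (16.2%). A further 107 reads (13.1%) and 126 reads (12.8%) ended after the intron chr10:33343124-33363977 in an exon that ran on to chr10:33368275 in its main model and is no annotated end. None of these shares passed the test of a difference between the libraries (Fisher's exact test, adjusted p = 1 in each), and 0% of 5142 last introns over all genes were called, with 1 of 14 member introns at an unadjusted p under 0.05.

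**Figure D4:**
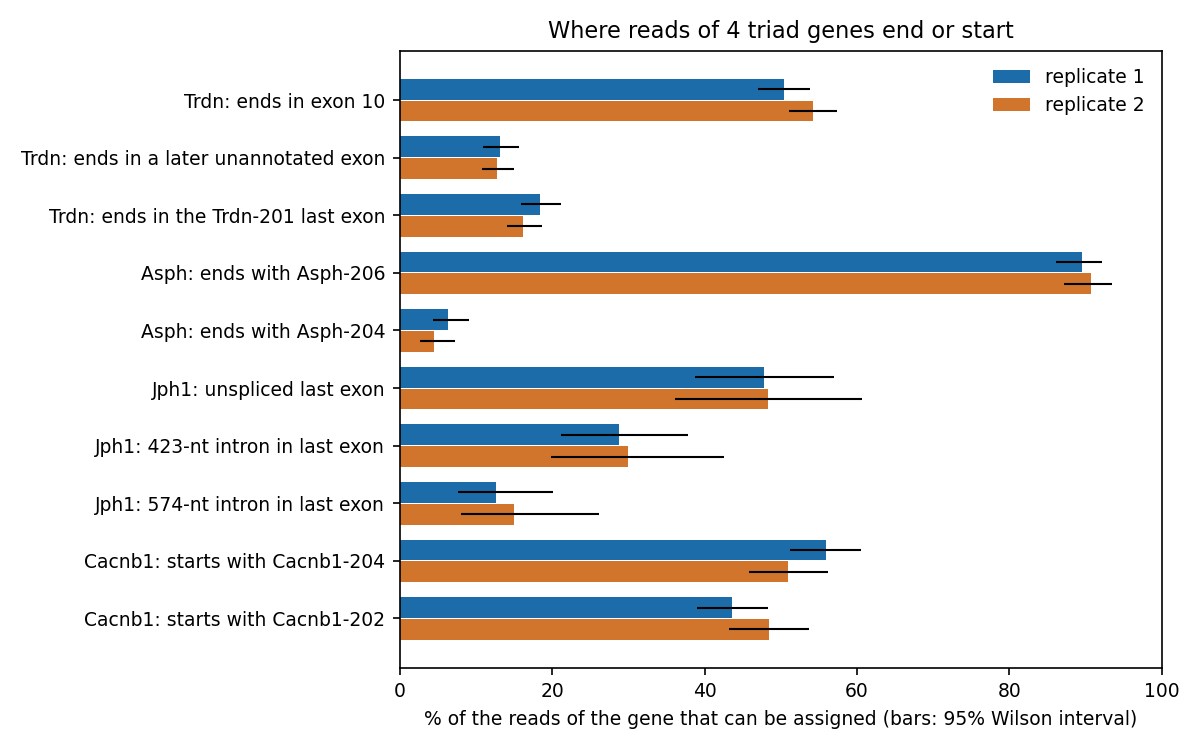
Percentage of reads that end with each last intron (Trdn, Asph, Jph1, of spliced reads) or start with each annotated first intron (Cacnb1, of reads holding one), with 95% Wilson intervals as black lines and a bar per library. Trdn reads split between an end in exon 10 (50.4 and 54.3%) and later ends, and Asph reads lie almost wholly at the short end. Jph1 reads leave the last exon unspliced in 47.7 and 48.3%, and the bars for the intron within it are split by acceptor. Cacnb1 reads lie between 43.6 and 56.0% at either start.

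Trdn was the member with the most variable exons, with 12 of the 15 of the 10 genes. Those 12 count 8 annotated exons and 4 unannotated shorter forms of annotated ones, so both forms of an exon can be counted. With splice sites within 5 nt taken as 1 exon, 8 variable exons of all members were tested. Jph2 and Stac3 had no inner exon with enough reads. An exon was variable when 5 to 95% of the summed spanning reads of both libraries held it, with 20 spanning reads in each. Reads that went past exon 10 met a 105-nt exon at chr10:33257033-33257137, annotated in Trdn-205 and not in Trdn-201. The whole exon was held by 199 of 325 reads in replicate 1 (61.2%, 55.8 to 66.4%) and 244 of 357 in replicate 2 (68.3%, 63.4 to 73.0%). An unannotated form that begins 18 nt further on, at chr10:33257051, was in 112 (34.5%) and 99 (27.7%). The exon was thus present in one form or the other in most reads, and the shorter form was the less frequent in both libraries.

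Exon 24 of Trdn-201, 30 coding nt at chr10:33433701-33433730, was nearest to equal use. It was held by 62 of 147 reads in replicate 1 (42.2%, 34.5 to 50.3%) and 69 of 161 in replicate 2 (42.9%, 35.5 to 50.6%). A 48-nt exon at chr10:33343076-33343123 was in 86.6% and 84.7%. All 3 remaining sites with an unannotated form differed from the annotated exon by 3 nt at the 5' side, and the 3 bases in question, in capitals below, are AAG or CAG, so that the shorter form, too, begins after an AG:
Trdn 24-nt exon: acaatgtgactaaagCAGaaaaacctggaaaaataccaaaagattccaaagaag
Trdn 39-nt exon: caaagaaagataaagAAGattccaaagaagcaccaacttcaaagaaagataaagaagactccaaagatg
Trdn second 39-nt exon: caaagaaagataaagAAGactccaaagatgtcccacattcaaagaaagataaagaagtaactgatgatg
Trdn 30-nt exon: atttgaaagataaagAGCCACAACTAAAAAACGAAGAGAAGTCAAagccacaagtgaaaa
The form shorter by 3 nt was found in 10.9% and 16.1% of spanning reads at the exon of 39 nt at chr10:33466423-33466461, in 6.12% and 6.79% at the 24-nt exon and in 4.76% and 8.07% at the second 39-nt exon, replicate 1 before replicate 2. In all of these the annotated form was the more frequent in both libraries. The 30-nt exon above is given whole in capitals.

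**Figure D5:**
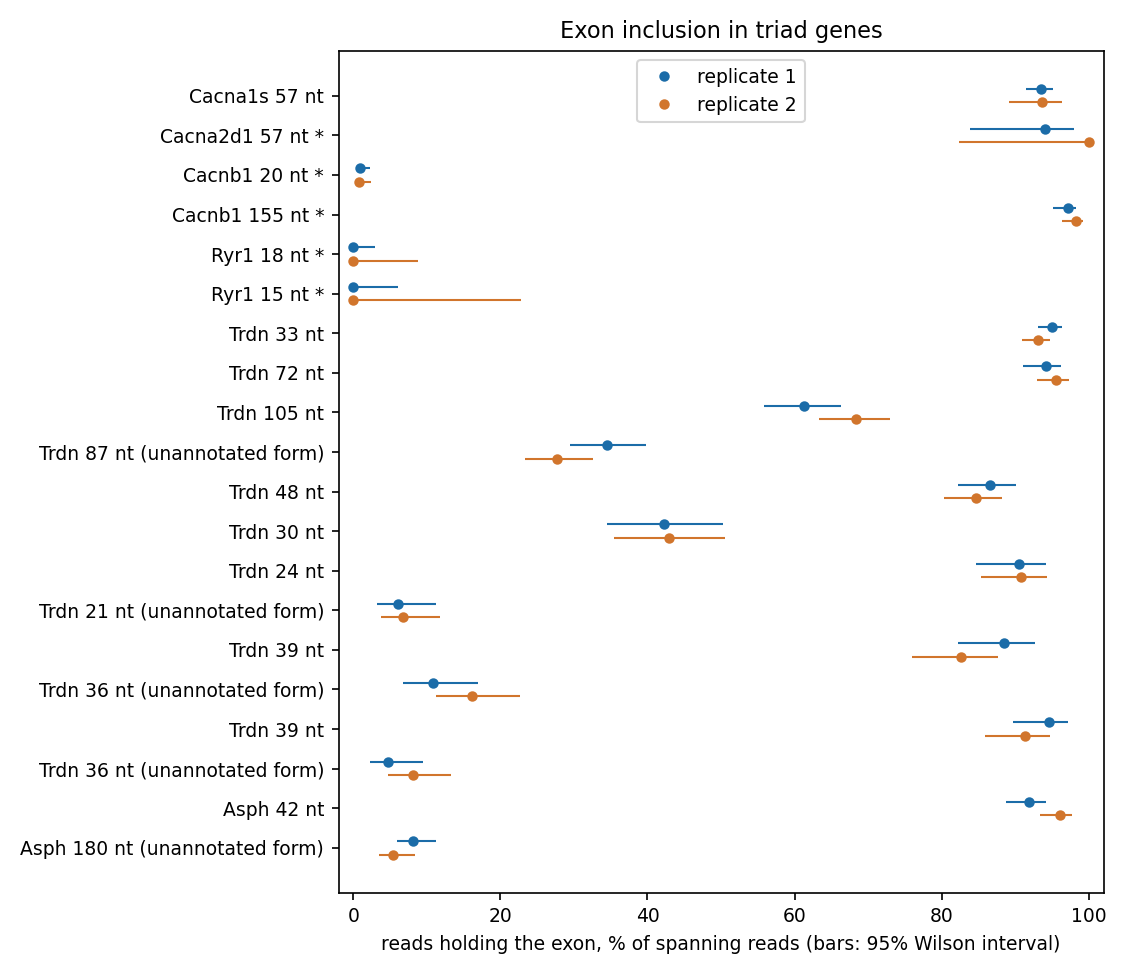
Percentage of spanning reads that hold an exon, with 95% Wilson intervals as lines and one point per library, for the 15 variable exons and, marked *, 5 exons chosen after their values were seen. Intervals of the 2 libraries overlap for every exon, and the 2 Ryr1 exons, counted as exons of their own, lie at 0.

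No variable exon of the members passed the test of a difference between the libraries: 0 of 15 were called, and 1, the Asph 42-nt exon, had an unadjusted p under 0.05 by Fisher's exact test, where 0.0493% of 4055 variable exons over all genes were called. Exons on the same Trdn molecule were also compared, since long reads hold both. Of 63 pairs of variable exons in the members, 0 were linked in both libraries, 3 had an unadjusted p under 0.05 in both and 16% of 4450 pairs over all genes were called. With reads of both libraries summed, 3 Trdn pairs passed, where 28.7% of 4450 pairs over all genes did, and 1 of the 3 follows from another. The 105-nt exon was in 394 of 601 reads that held the 33-nt exon at chr10:33158246-33158278 and in 8 of 30 that skipped it (Fisher's exact test, adjusted p = 0.000223). Its form shorter by 18 nt, in 184 of those 601 reads and 19 of the 30, excludes the whole form on a read, so that pair (exact adjusted p = 0.00192) is not a separate result. The 24-nt exon was in 158 of 165 reads with the whole 105-nt exon and in 113 of 135 without it (exact adjusted p = 0.00274). Its form shorter by 3 nt was in 7 of those 165 reads and 13 of those 135. Reads without the 24-nt exon thus include reads with the shorter form.

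Triadin also held the difference between libraries in how far reads reached 5'. The first intron of Trdn-201 was in 703 of 865 reads in replicate 1 (81.3%, 78.5 to 83.7%) and 680 of 1024 in replicate 2 (66.4%, 63.5 to 69.2%), 14.9 points apart (Fisher's exact test, adjusted p = 8.19e-11), in a test that called 0.526% of 4564 genes. Taken apart after seeing the data, reads that went past exon 10 held that intron in 304 of 381 (79.8%) in replicate 1 and 325 of 408 (79.7%) in replicate 2. Reads that ended by exon 10 held it in 399 of 484 (82.4%) and 355 of 616 (57.6%), so the difference lay among the short reads. A model of 5 exons and 432 nt that starts further in, from chr10:33183954 to chr10:33233926, took 7.63% of reads in replicate 1 and 20.6% in replicate 2 (exact adjusted p = 2.58e-13). The 10-exon model of 1160 nt with the annotated start took 37.0% and 26.6% (exact adjusted p = 0.000162). With any annotated first intron of Trdn counted, the shares were 91.9% and 93.5% and were not called. That measure includes first introns of shorter transcripts, which a read may hold as inner introns. Of reads that themselves began with an annotated first intron, 702 of 703 in replicate 1 and 680 of 681 in replicate 2 held that of Trdn-201.

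Asph reads came almost wholly from the short end of the locus. Asph-206, with 5 exons, 1762 nt and 621 coding nt, took 299 of 427 reads in replicate 1 and 268 of 363 in replicate 2 (73.8%), against the 2223 coding nt of Asph-202, the transcript with the most exons. The locus is known to encode junctin from its short form and aspartyl beta-hydroxylase from its long one. The last intron of Asph-206 and Asph-201, chr4:9622227-9624359 on the minus strand, was used by 367 of 410 spliced reads in replicate 1 (89.5%, 86.2 to 92.1%) and 305 of 336 in replicate 2 (90.8%, 87.2 to 93.4%). The next end, that of Asph-204 and others, was used by 26 reads (6.34%) and 15 reads (4.46%), and the end of Asph-202 by 6 reads and 0 reads.

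Start and end of Asph went together on single reads. The inner start, with first intron chr4:9639348-9643534, was used by 375 of 405 reads with an annotated first intron in replicate 1 (92.6%) and 316 of 331 in replicate 2 (95.5%), and the outer start by 28 and 13 reads. Reads from the inner start ended at the short end in 362 of 375 cases in replicate 1 (96.5%) and 308 of 316 in replicate 2 (97.5%). Reads from the outer start did so in 9 of 28 (32.1%) and 4 of 13 (30.8%), a comparison made after seeing the data and not tested. The exon just before the short end, exon 4 of Asph-206 at chr4:9624360-9624401, is shown in capitals because it was the one variable coding exon of the short form:
Asph 42-nt exon: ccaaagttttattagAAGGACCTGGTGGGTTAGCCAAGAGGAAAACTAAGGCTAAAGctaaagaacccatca
It was held by 371 of 404 reads in replicate 1 (91.8%, 88.7 to 94.1%) and 317 of 330 in replicate 2 (96.1%, 93.4 to 97.7%; exact adjusted p = 1). An unannotated 180-nt exon at chr4:9630773-9630952 was in 33 reads (8.17%) and 18 reads (5.45%).

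Junctophilin 1 used an unannotated splice within its last exon. The annotated last intron of Jph1-201, chr1:16997560-17003890 on the minus strand, was the last intron of 53 of 111 spliced reads in replicate 1 (47.7%) and 29 of 60 in replicate 2 (48.3%). A further intron inside the last exon began 15 nt after the stop codon and was removed in 52 of 111 reads (46.8%, 37.8 to 56.1%) and 30 of 60 (37.7 to 62.3%), through 4 acceptor sites. The main acceptor gave a 423-nt intron, chr1:16997041-16997463, in 32 and 18 reads in replicates 1 and 2, and the next a 574-nt intron in 14 and 9 reads. The coding sequence was the same in either case. Whole Jph1-201 took 33.6% of all reads in replicate 1 and 22.4% in replicate 2 (exact adjusted p = 0.77), and the same transcript with the 423-nt intron removed took 22 and 7 reads. The first intron was held by 67.2% and 43.4% of reads (exact adjusted p = 0.10).

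Junctophilin 2 reads were often short. Jph2-201, with 6 exons and 4211 nt, took 38 of 91 reads in replicate 1 (41.8%) and 5 of 27 in replicate 2 (18.5%; exact adjusted p = 0.50). A single-exon genomic model of 915 nt at the 3' end took 25 reads (27.5%) and 12 reads (44.4%). With the genomic class left out the log2 ratio of Jph2 was 1.82, and with annotated transcripts alone 2.63.

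Over the 10 genes 47.5% of reads in replicate 1 and 38.4% in replicate 2 matched an annotated transcript whole (mean 42.9% ± 6.48, SD, n = 2), against 72.1% and 76.4% over all annotated genes. Incomplete matches took 34.3% and 41.3% of member reads. Trdn had 6.47% and 4.30% of reads in annotated transcripts, Cacnb1 80.0% and 86.3%, and Cacng1 92.6% and 94.9%, so the share ran widely among members in both libraries. None of 9 members tested was called for this share by Fisher's exact test, with 4 at an unadjusted p under 0.05, where 0.49% of 4697 genes were called. The 10 genes had 474 intron chains in replicate 1 and 387 in replicate 2, and 197 were in both, 41.6% of the first and 50.9% of the second. Those shared chains held 89.5% of the spliced reads of replicate 1 and 91.8% of those of replicate 2. The same shares were not taken over all genes, so these values do not set the members apart.

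Other genes of coupling and calcium handling, a list of 25, all had reads in both libraries, and 0 of 25 were called in either direction by the exact binomial test, against 2.71% of all tested genes. With no fold limit, 5 of 25 passed the adjusted p as higher in replicate 1 and 4 as lower, against 9.11% of all tested genes in either direction. Among those with the highest level, Atp2a1, the calcium pump (82292 and 63671 CPM in replicates 1 and 2), Casq1, the fast-fibre calsequestrin (8758 and 8128 CPM), Srl, sarcalumenin (3968 and 2816 CPM) and Bin1, which shapes the tubule membrane (1209 and 982 CPM), were higher in replicate 1. Sypl2, mitsugumin 29 (1848 and 1976 CPM), the counter-ion channel gene Tmem38a (1860 and 1861 CPM) and Ank1, an ankyrin gene (437 and 452 CPM), did not pass. The list's median log2 ratio was 0.08, against 0.01 over all tested genes.

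Of 22 paralogues of the members from heart, brain and other tissues, 10 had reads, 2 had enough for the gene test and 0 were called in either direction. Ryr1 made up 408 of 409 ryanodine receptor reads in replicate 1 and 281 of 282 in replicate 2, with 0 reads of the heart gene Ryr2 and 1 read of Ryr3 in each. Cacna1s made up 99.2% and 99.1% of reads of the 4 calcium channel pore genes counted, with 4 reads and 1 read of Cacna1c. Cacnb1 made up 99.6% and 99.5% of beta subunit reads, with 2 reads of Cacnb3 in each library, and Jph1 with Jph2 99.5% and 99.0% of junctophilin reads, with 1 read of Jph4 in each. Other families were more mixed: Cacna2d1 made up 88 of 106 and 47 of 55 alpha2delta reads and Stac3 89.3% and 85.7% of reads of its family. Cacng1 had the lowest share and made up 366 of 588 reads in replicate 1 (62.2%, 58.3 to 66.1%) and 217 of 398 in replicate 2 (54.5%, 49.6 to 59.3%), and all others were of Cacng6 (194 and 192 CPM). Of the other paralogues, Cacna2d3 had 18 reads and 8 reads, Stac 2 in each, and Cacna1a 2 reads and 0 reads.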

How the data were processed

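Long-read RNA-seq of total RNA was measured in 2 gastrocnemius libraries from separate animals per the labels. The p-values of a difference thus allow for counting error of reads in 2 libraries and not for spread among animals. Linkage tests compare reads within a library, or of both summed, and not the libraries. The authors deposited raw read counts for each transcript model found. The files use mm10 coordinates and GENCODE M21 genes per the labels, and the deposited annotation carries TALON attributes; aligner and versions: not given in the sources used here. In TALON's classes a read matches an annotated transcript whole (known), part of one (incomplete), new combinations of known sites or new sites, or is genomic.

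From these files, reads were summed per gene and per model, matched between libraries by intron chain. CPM used mouse reads without spike-ins. Genes whose summed count reached 20 reads entered an exact two-sided binomial test, and shares with Fisher's exact test (20 reads in each library, calls at an adjusted p under 0.05 and 10 points), with Benjamini-Hochberg adjustment over all features; 0.5 reads were added to each count for log2 ratios. A spanning read has spliced exons on both sides of an exon. Members, lists and tests were chosen with earlier results of these data known. Names followed a rule: all members, up to 6 variable exons and 3 models per member, last introns at 5% or more, and up to 8 genes per list, of which 1 is not reported here; any other is said to be chosen after its values were seen. Model lengths of annotated transcripts are annotated lengths, not read lengths. Incomplete Ryr1 and Trdn models named above start and end at exon edges, so they give the exon and not the base where a read began or ended. Exon and promoter sequences came from GENCODE M21 transcripts and RefSeq, and no genome sequence was used. The tests were checked on simulated data, where most exon shifts and linked exon pairs and many small gene differences were missed, so an exon or pair not called is not shown to be alike. Python 3.11.15, numpy 2.4.6, scipy 1.17.1, pandas 2.3.3 and matplotlib 3.10.9 were used, with edgeR 4.0.16 and DESeq2 1.42.0 scaling (R 4.3.3) as alternatives to all mouse reads, which shifted log2 ratios by -0.02 each.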

Additional observations from a re-analysis of the deposited data

Results flagged for a closer look

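Reads that the authors assigned to unannotated antisense loci lie outside the gene counts above. On the strand opposite to Trdn there were 15 such reads in replicate 1 and 10 in replicate 2, above the limit of 3 reads in both; the locus from chr10:33197418 to chr10:33198705 held 10 and 6 of them. On the strand opposite to Cacna2d1 there were 7 reads in replicate 1 and 6 in replicate 2, spread over loci of 2 reads at most. No control samples exist, and whether these reads are transcripts of their own was not tested.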

How the results depend on the processing

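Results were recomputed under the alternatives fixed for each. Of those chosen after seeing the data, an expected share by model length and models of 2000 nt or more alone were run for the gene difference, and Trdn reads taken apart at exon 10 for 5' reach. The summed level of 2992 CPM was 1293 CPM with annotated transcripts only and 1319 CPM per kb of model, and 2825 to 3159 CPM with 1 library left out; the annotated share was 38.4% to 47.5%. Members called for a gene difference numbered 2, but 4 at any fold and 1 with the expected share by length; genes called over the whole table numbered 204, but 685 at any fold and 59 with 100 or more reads. Leaving out the genomic class brought 1 call of the annotated share (Cacna1s, 15.7 points) and 2 calls of 5' reach. In Cacna1s it removed unspliced reads from replicate 1 only, since those of replicate 2 were classed as incomplete. Calls of 5' reach numbered 0 with Trdn reads past exon 10 only, and the 1 call with any annotated first intron was Ryr1, not Trdn. The 3 model calls became 0 with annotated transcripts only and 0 with incomplete and genomic models left out: both Trdn models are incomplete and leave the test, while Cacna1s-204 stayed in it at 1.61 and 3.65 points, against 13.1. Linked pairs numbered 3 with both libraries summed.

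With annotated transcripts only, the log2 ratio turned to -0.026 in Cacnb1 and 0.062 in Trdn, and the inclusion difference of the Cacna1s exon to 1.61 points. Asph turned to 0.062 with the expected share by length and 0.71 in models of 2000 nt or more, where Cacnb1, with a log2 ratio of 3.27, was called. The 2000-nt limit leaves out Asph-206 (1762 nt), Cacnb1-204 (1778 nt) and Cacnb1-202 (1880 nt), which held most reads. Those 2 ratios thus rest on the remaining models. The 5' reach difference turned to -1.55 points in Trdn with any first intron and 0.56 in Cacng1 without the genomic class. The Cacnb1-204 share difference turned to 3.94 points among annotated transcripts and 1.40 without incomplete and genomic models, and that of a 32-exon Ryr1 model to -31.0 points in the latter. That Ryr1 model was classed as incomplete in replicate 1 (26 reads) and as a new combination in replicate 2 (9 reads). Leaving out incomplete models thus removed it from replicate 1 only. The cause of the other turns was not tested. Trdn is the one member whose gene difference passed the adjusted p and turned direction. No paired analysis was possible because there is 1 group. Leaving out a library leaves no test. Depth limits Stac3, Jph2 and Cacna2d1 most, with 12, 27 and 47 reads in replicate 2, and 13 Ryr1 reads at the 15-nt exon.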
